A study of Mus musculus with 2 samples.

Results

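The genes described here encode regulators of red cell development and proteins of the red cell membrane and cytoplasm, followed by symbol in single cells of mouse spleen. They were chosen by name, as a list of 9 genes. The 8 analysed, of 26124 features in each expression matrix, were the transcription factors Gata1, Klf1 and Tal1, the erythropoietin receptor Epor, the membrane proteins Slc4a1, Rhag and Ermap, and the carbonic anhydrase Car1. The ninth gene was not analysed here. The question for these genes was how their transcripts were shared among progenitors and maturing erythroid precursors, how much of them appeared in cells of other lineages, and how both differed between a mouse with sickle cell disease (SCD) and its control.

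The series holds 1 spleen library of a control mouse, labelled wild-type, and 1 of an SCD mouse of the Berkeley model, in which a human transgene supplies the globins. Both mice were 12 to 16 weeks old, untreated and homozygous for Hbatm1Paz, an allele that removes mouse alpha-globin. The wild-type mouse was heterozygous for Hbbtm1Tow, which removes mouse beta-globin, and hemizygous for the sickle transgene Tg(HBA-HBBs)41Paz, and is described as non-sickling, so the control carried the transgene too. The SCD mouse was homozygous for both Hbbtm1Tow and the transgene. The spleen suspensions had been treated with red cell lysis buffer. Other lineages, B and erythroid cells foremost, were then pulled out with a kit, which left the suspensions richer in dendritic cells (DC). The erythroid cells measured were thus those that escaped depletion. With 1 mouse per genotype there was no replicate. No test between genotypes could be made, and the 95% intervals given here cover counting error only.

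Red cells arise from progenitors that express Kit and are driven by GATA1, TAL1 and KLF1, factors that bind GATA, E-box and CACCC motifs and switch on the globin, heme and membrane genes. Erythropoietin acts through its receptor to keep late progenitors and early precursors alive. Maturing precursors then make the membrane proteins, of which band 3, the product of Slc4a1, is the anion exchanger that anchors the membrane skeleton. In the mouse the spleen is itself a site of red cell production and expands under anemia.

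In GENCODE vM21 on GRCm38, Gata1 (ENSMUSG00000031162) lies at chrX:7959260-7978071 on the minus strand, Klf1 (ENSMUSG00000054191) at chr8:84901928-84905291 on the plus strand and Tal1 (ENSMUSG00000028717) at chr4:115056426-115071755 on the plus strand. Epor (ENSMUSG00000006235) lies at chr9:21958897-21963506 on the minus strand. Slc4a1 (ENSMUSG00000006574) lies at chr11:102348824-102366203 on the minus strand, Rhag (ENSMUSG00000023926) at chr17:40811126-40840754 on the plus strand, Ermap (ENSMUSG00000028644) at chr4:119175457-119190011 on the minus strand and Car1 (ENSMUSG00000027556) at chr3:14766216-14808368 on the minus strand. All 8 are protein-coding. The only annotated gene overlapping any of them was Gm16399, within Car1 on the same strand, with no shared exon.

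Promoters are shown because these genes had like patterns across the clusters described below and because 3 of them encode factors with known motifs. RefSeq gave 7 promoter entries for 6 of the genes on GRCm38.p6, and the start named below is that of the RefSeq entry. Each was searched over the 250 bases before the start, on both strands, for a GATA motif (spelled AGATAA or with a first T as TGATAA, or with a last G as AGATAG, or with both as TGATAG) and for CACCC, the motifs of GATA1 and KLF1. The stretches below are given 5′ to 3′ on the strand of the gene, with GATA and CACCC matches on either strand in capitals, so that TTATCA and likewise TTATCT mark the GATA motif, and GGGTG marks CACCC, on the opposite strand.
Gata1, chrX:7967911-7968060, minus: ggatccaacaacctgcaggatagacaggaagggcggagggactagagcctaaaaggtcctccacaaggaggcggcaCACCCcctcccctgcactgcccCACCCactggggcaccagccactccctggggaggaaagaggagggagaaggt
Klf1, chr8:84901832-84901927, plus: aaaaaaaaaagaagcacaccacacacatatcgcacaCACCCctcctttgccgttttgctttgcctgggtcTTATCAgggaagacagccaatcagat
Epor, chr9:21963577-21963726, minus: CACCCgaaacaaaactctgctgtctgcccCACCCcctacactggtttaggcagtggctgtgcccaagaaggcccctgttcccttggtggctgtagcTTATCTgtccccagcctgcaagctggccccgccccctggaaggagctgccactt
Rhag, chr17:40810999-40811125, plus: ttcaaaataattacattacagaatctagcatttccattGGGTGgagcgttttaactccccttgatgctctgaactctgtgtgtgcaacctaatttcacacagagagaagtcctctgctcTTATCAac
Ermap, chr4:119190012-119190145, minus: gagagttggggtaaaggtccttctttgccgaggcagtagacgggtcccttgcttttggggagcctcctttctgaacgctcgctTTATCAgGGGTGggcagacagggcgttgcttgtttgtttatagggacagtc

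A GATA motif was present in 5 of the 7 promoter entries, against 26.5% of 32851 mouse promoters of the same length. It began 80 bases before the RefSeq start in Klf1, 54 in Epor, 31 in Rhag, 67 in Ermap and 205 in an entry of Tal1. The GATA letters were not in the Gata1 window. The printed stretches of Klf1, Rhag and Ermap stop 54, 23 and 16 bases short of that start, before the first GENCODE exon base. Their matches thus lie nearer to the printed ends than to the RefSeq start. CACCC was present in 6 of the 7, against 52.01% of all promoters, and an E-box (CAGNTG, that is with any base at N), the motif of TAL1 with its partners, in 2 of the 7, against 44.8%. In Ermap the CACCC match, 60 bases before the start, lay next to the GATA match. These matches describe the letters of the windows and were not linked to binding in these cells.

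The wild-type library held 10845 cells with 97880318 unique molecular identifiers (UMIs, each counting 1 captured RNA molecule) and the SCD library 13447 cells with 189688217 UMIs. After removal of cells with fewer than 500 genes, over 15% mitochondrial or over 30% ribosomal UMIs, 9718 (89.6%) and 11855 (88.2%) cells remained. There were 88 barcodes shared by both libraries. Levels are UMIs of a gene per 1000000 UMIs (CPM), summed over the cells of a class, and because the 3′ kit counts each molecule once they do not scale with transcript length. Where 2 values of a gene are given as a pair, the wild-type library comes first and the SCD library second. The alleles could be checked on mouse beta-globin. In the precursor-like class described below Hbb-bs stood at 282797 and 2820 CPM, lower in the mouse labelled as lacking it, while reads assigned to Hba-a1 stood at 109032 and 114901 CPM although both mice were labelled as lacking the mouse alpha-globin genes. Whether transgene reads were assigned to the mouse gene was not tested.

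Cells were clustered without the 8 genes and without globins, and clusters were named from marker lists that held none of the 8. The erythroid progenitor-like class was led by Car1, Mt2, Klf1, Car2 and Bex4 and held 198 wild-type and 622 SCD cells, 2.04% (1.77 to 2.34) and 5.25% (4.85 to 5.66) of the kept cells. Its cells were deep, with medians of 79781 and 78841 UMIs, and all 10 progenitor markers were detected, among them Gfi1b, Zfpm1 and Tfr2. The erythroid precursor-like class was led by Hbb-bs, Hbb-bt, Slc4a1, Alas2 and Tmcc2 and held 56 and 71 cells, 0.58% and 0.60%, with medians of 7825 and 4402 UMIs and all 17 precursor markers detected. Detection alone did not separate the classes, since the progenitor-like cells also held all 17 precursor markers. The precursor list summed to 2481 and 2634 CPM in the progenitor-like and 16127 and 22562 CPM in the precursor-like cells, and the progenitor list to 3143 and 3026 CPM and then to 5381 and 8104 CPM, so that the progenitor list was higher in the precursor-like cells, against its name. The list of Kit and Cd34 progenitor genes went the other way, from 1134 and 814 CPM in the progenitor-like to 84.5 and 13.1 CPM in the precursor-like cells. The other classes were named in the same way and are called neutrophils, monocytes, DCs and red pulp macrophages for short, which means cells like these. The ratio of the progenitor-like shares, SCD over wild-type, was 2.58 (2.19 to 3.04), and that of the precursor-like shares was 1.04 (0.722 to 1.503). The first ratio moved with the quality limits: 346 wild-type cells (64.3% of the progenitor-like cells found without limits) and 275 SCD cells (30.7%) were removed for over 30% ribosomal UMIs or, for 3 of the SCD cells, mitochondrial UMIs, and without the limits the ratio was 1.34, from 538 and 895 cells.

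The counted UMIs of 7 of the 8 genes lay mostly in the progenitor-like cells, and those of Slc4a1 lay mostly in the precursor-like cells. The progenitor-like class held 96.3% and 95.3% of the UMIs of Gata1, 97.3% and 96.6% of those of Car1, and between 89.2% and 96.3% of those of Klf1, Tal1, Epor, Rhag and Ermap in each library. For Slc4a1 the shares were 0.775% and 17.3%, while the 56 and 71 precursor-like cells held 93.9% and 62.7%. The erythroid-like cells together held 18.7% and 27.5% of all UMIs of the kept cells. Of these 14888732 and 47302576 UMIs, 14439223 and 46769874 lay in the progenitor-like class. The shares of the 7 genes thus follow the number and depth of its cells, and are not a measure of level.

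Gata1, the factor without which erythroid precursors die, stood in the progenitor-like cells at 127.9 and 137 CPM, and in the precursor-like cells at 48.9 CPM (30.7 to 74.1) and 176 CPM (143 to 216). In neutrophils, monocytes, conventional and plasmacytoid DCs and red pulp macrophages it stood at 0.21 to 2.98 CPM (wild-type) and 1.78 to 4.13 CPM (SCD). Klf1, the activator of adult beta-globin and of many membrane genes, stood at 265 and 280 CPM in the progenitor-like and 154 and 443 CPM in the precursor-like cells. Tal1, the partner of GATA1 in an activating complex, stood at 130 and 126 CPM, then at 136 and 351 CPM. The 3 factors thus had similar levels in the progenitor-like cells of both libraries, and the libraries parted in the precursor-like cells. That parting was not particular to these factors, since 54% of the 2873 genes expressed there were at least 2-fold higher in the SCD library.

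Epor stood at 87.1 and 85.3 CPM in the progenitor-like cells and at 102 (74.9 to 136) and 229 CPM (190 to 273) in the precursor-like cells. Outside the erythroid classes it stood at 0.42 to 0.94 CPM (wild-type) and 0.68 to 1.49 CPM (SCD) in the classes other than red pulp macrophages, which are described below, and the 21 wild-type B cells, in which none was counted (a limit of 15.9 CPM).

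Slc4a1 stood at 0.62 CPM (0.29 to 1.18, 9 UMIs in 9 cells) and 9.13 CPM (8.28 to 10.0, 427 UMIs in 86 cells) in the progenitor-like cells, and at 2425 and 2900 CPM in the precursor-like cells. Its step between the classes was the largest of the 8 genes. Rhag, a glycoprotein of the Rh complex that carries gas or ammonium across the membrane, stood at 82.1 and 109.7 CPM, then at 258 and 398 CPM. Ermap, an erythroid membrane protein of the immunoglobulin family that carries the Scianna blood group, stood at 321 and 291 CPM, then at 418 and 696 CPM. Car1, an enzyme that interconverts carbon dioxide and bicarbonate and is abundant in erythroid progenitors, stood at 3552 and 2445 CPM in the progenitor-like cells, the highest level of the 8 genes in these cells. In the precursor-like cells it stood at 28.9 CPM (15.4 to 49.5, 13 UMIs in 10 of 56 cells) and 471 CPM (415 to 533, 251 UMIs in 31 of 71 cells). The wild-type value was close to the 24.4 CPM (22.1 to 26.9) of the same gene in wild-type neutrophils.

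**Figure D1:**
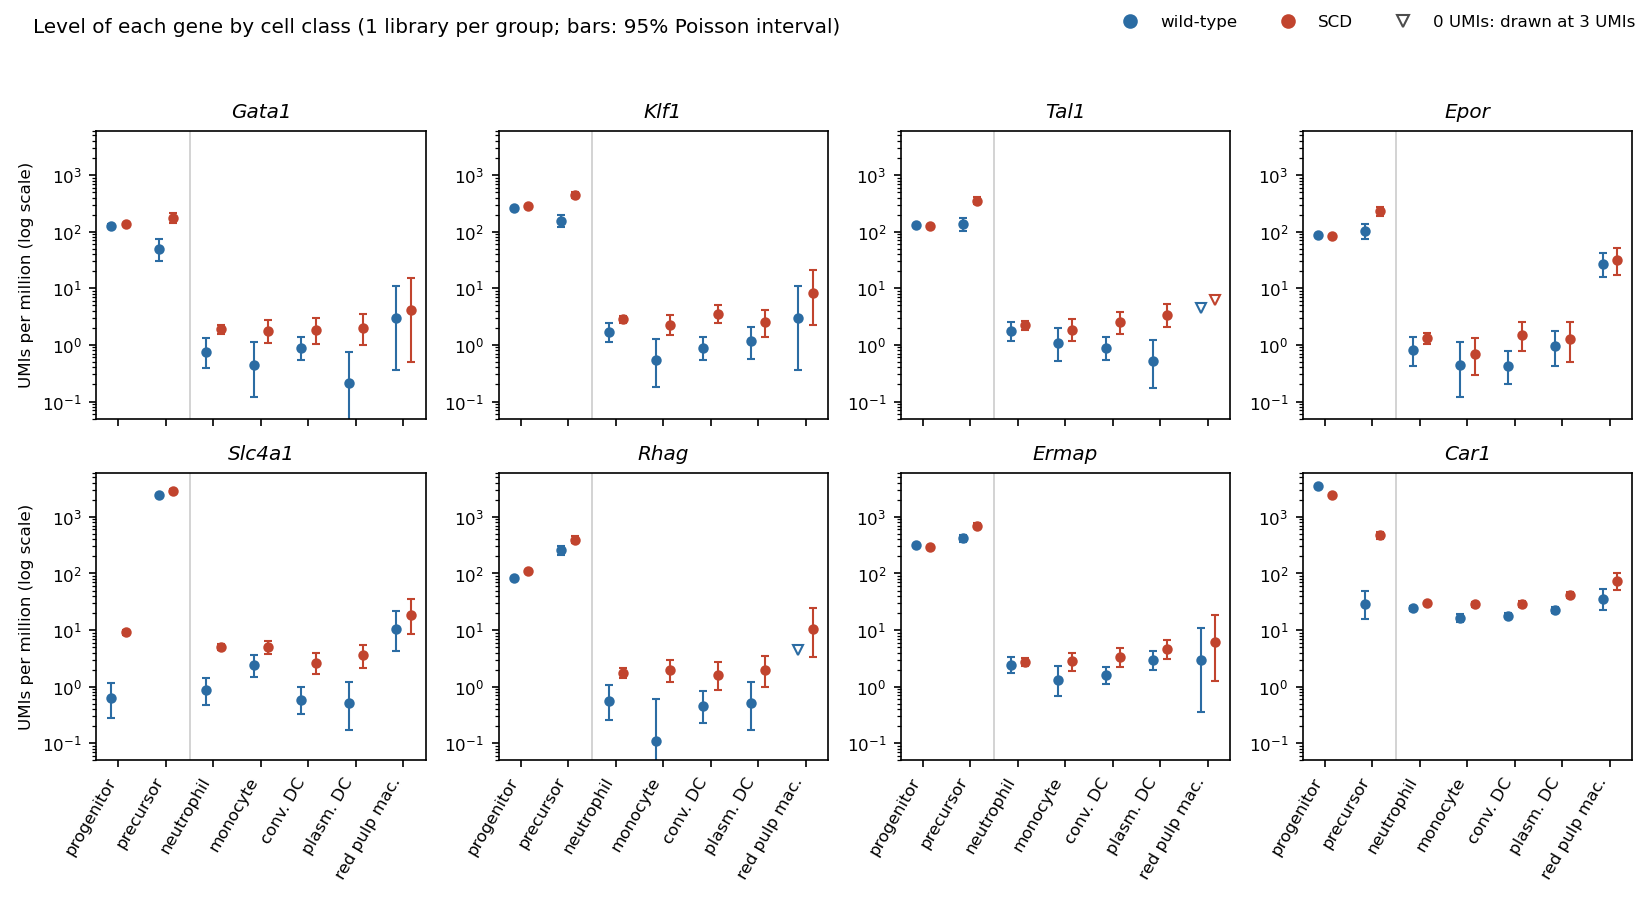
Level of each of the 8 genes (CPM, log axis) by cell class in the wild-type (blue) and SCD (red) library, with 95% Poisson intervals and with open triangles at the level of 3 UMIs where none was counted. In each panel the 2 erythroid classes stand left of the grey line; Slc4a1 steps up and Car1 steps down from progenitor-like to precursor-like cells, and Epor is at 26.8 and 31 CPM in red pulp macrophages.

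Between the stages, 4 genes had the same direction in both libraries, and the ratio of precursor-like to progenitor-like CPM was above 1 for 3 of them. It was 3890 (2042 to 8531) and 318 (285 to 354) for Slc4a1, 3.14 and 3.63 for Rhag, and 1.30 (1.12 to 1.51) and 2.39 (2.15 to 2.65) for Ermap. For Car1 it was 0.008 (0.004 to 0.014) and 0.193 (0.170 to 0.218). For Gata1 and Klf1 the direction differed between libraries when globin was kept in the total. The ratios were 0.383 (0.239 to 0.581) and 0.578 (0.449 to 0.734) for the wild-type mouse. For the SCD mouse they were 1.29 (1.04 to 1.58) and 1.58 (1.38 to 1.80). Of the sub-clusters described below, sub-cluster 7 supplied 65.9% of the UMIs of the SCD precursor-like class. In the SCD cells of sub-cluster 6, Gata1 stood at 60.6 CPM and Klf1 at 78.8 CPM (41.9 to 135), both below the 137 and 280 CPM of the progenitor-like class, as in the wild-type library. For Tal1 and Epor the wild-type intervals, 0.792 to 1.34 and 0.855 to 1.58, spanned 1, and the SCD ratios were 2.79 and 2.68. The precursor-like CPM is set against a total in which globin weighs heavily: Hbb-bs and Hbb-bt alone stood at 282797 and 83293 CPM in the wild-type precursor-like cells and at 2820 and 413 CPM in the SCD cells. Hbb-bs, Hbb-bt and Hba-a1 held 127120, 37441 and 49011 of the 449509 UMIs of the wild-type class, which lowers its ratios. The wild-type directions of Gata1 and Klf1 are thus given only for totals with globin, and ratios without it were not computed.

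Clustering the erythroid-like cells again gave sub-clusters that ordered the genes more finely. Sub-cluster 4 (120 cells, all wild-type, led by Akr1e1 and Tceal3) and sub-cluster 1 (243 cells, all SCD, led by Cpd and Tmem56) were both progenitor-like and had Gata1 at 134 and 150 CPM, Klf1 at 273 and 313 CPM and Tal1 at 136 and 137 CPM. Rhag stood at 88.2 CPM (82.7 to 94.0) in sub-cluster 4 and at 137 CPM (132 to 143) in sub-cluster 1. Sub-cluster 2 (210 cells, of which 208 SCD), led by Lat and Ptprcap and with Gata2 among its leading genes, had Rhag at 77.7 CPM, Ermap at 249 CPM, Epor at 75.2 CPM and Car1 at 2722 CPM in the SCD library. Set against sub-cluster 1 of the same library, Rhag, Ermap and Epor were lower and Car1 was higher in sub-cluster 2. Kit and Myb, genes of early progenitors, stood at 89.7 and 395 CPM in sub-cluster 2 and at 83.2 and 276 CPM in sub-cluster 1.

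Sub-cluster 7 (30 SCD and 2 wild-type cells) was led by Slc4a1, Tac2 and Dmtn. Summed over its SCD cells, Slc4a1 stood at 1098 CPM, Car1 at 1007 CPM, Klf1 at 539 CPM (490 to 592), Tal1 at 306 CPM (269 to 346), Gata1 at 230 CPM (198 to 265), Rhag at 323 CPM, Ermap at 515 CPM and Epor at 166 CPM. Its 2 wild-type cells, with 31335 UMIs, had no UMI of Car1, and held Slc4a1 at 3893 CPM, Klf1 at 1468 CPM, Tal1 at 734 CPM and Gata1 at 383 CPM. In the SCD library the 3 transcription factors were higher in sub-cluster 7 than in sub-clusters 1 and 2 or in the SCD cells of sub-cluster 6, with intervals that did not overlap. Sub-cluster 6 (36 wild-type and 49 SCD cells), led by Tmcc2, Slfn14 and Alas2, had Slc4a1 at 3160 and 4781 CPM, and Gata1 at 21.5 (6.99 to 50.2) and 60.6 CPM (29.1 to 111). In the order of sub-clusters 1, 7 and 6 of the SCD library, Slc4a1 went from 2.27 to 1098 to 4781 CPM, and Car1 from 2263 to 1007 to 455 CPM. A single SCD cell of sub-cluster 6, the only one in the progenitor-like class, carried most of the last value, which was 114 CPM without it.

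**Figure D2:**
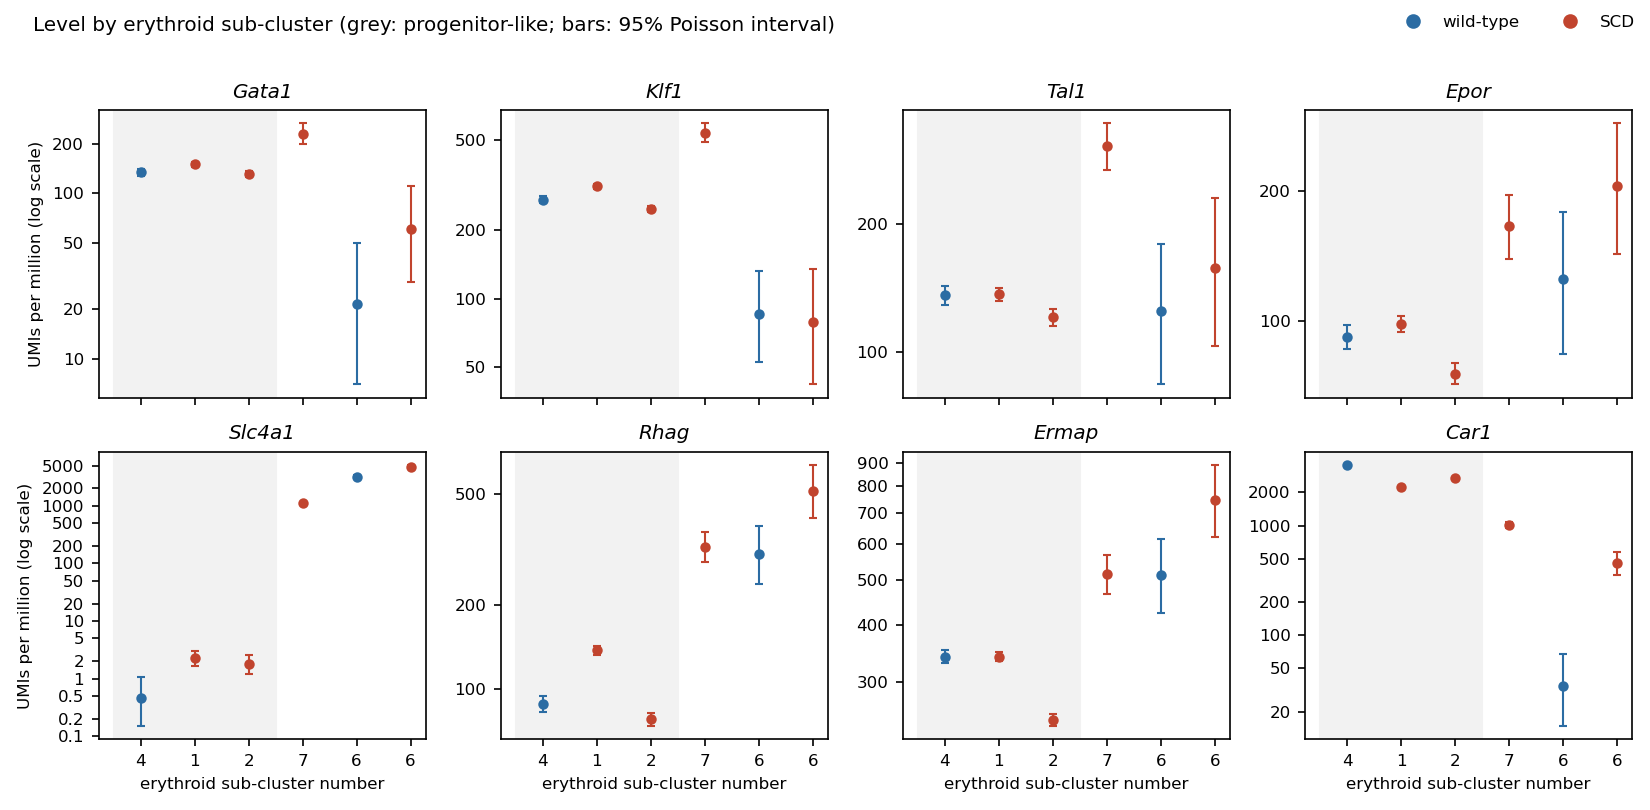
Level of each gene (CPM, log axis with its own range in each panel) in the erythroid sub-clusters, wild-type in blue and SCD in red, with 95% Poisson intervals and with the progenitor-like sub-clusters 4, 1 and 2 on grey. Of the sub-clusters plotted, Gata1, Klf1 and Tal1 are highest in sub-cluster 7 of the SCD library, Slc4a1 in sub-cluster 6 and Car1 in sub-cluster 4; the 2 wild-type cells of sub-cluster 7, in which the 3 factors were higher still, are not plotted.

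Within the progenitor-like class nearly every deep cell held the 3 factors together. When each cell was thinned to 40000 UMIs (156 wild-type and 533 SCD cells, with 42 and 89 shallower cells left out), 97.4% and 98.5% of cells held a UMI of each of Gata1, Klf1 and Tal1, and 82.7% and 89.9% held all of the genes except Slc4a1. Epor was seen in 94.9% and 95.1% of these cells, Rhag in 86.5% and 95.1%, and Slc4a1 in 1.28% and 8.26%. At 5000 UMIs a cell (169 and 568 cells, 29 and 54 left out), 44 of 137 wild-type cells (32.1%, 24.4 to 40.6) and 216 of 500 SCD cells (43.2%, 38.8 to 47.7) with either Gata1 or Klf1 held both. The share of cells seen to hold both thus depended on the depth.

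The counts of the genes were only weakly correlated from cell to cell. Over the cells thinned to 40000 UMIs, Pearson correlations among the 7 genes other than Slc4a1 ran from -0.01 to 0.34 (wild-type) and from -0.17 to 0.31 (SCD). The pair Rhag and Ermap had r = 0.33 and 0.31, Gata1 and Rhag 0.34 and 0.16, and Klf1 and Rhag 0.25 and 0.23. Car1 and Rhag had r = 0.11 and -0.17. The cells of a library share that library, and with a few UMIs of a gene per cell these values are a description only. The variance of these counts was 1.39 and 1.37 times the mean for Gata1, and 1.83 and 1.77 times for Rhag. Counting alone gives a variance equal to the mean. Counting noise thus lowers these correlations, and they do not show how closely the underlying levels are related. In cells with at least 40000 UMIs, Rhag had a median of 74.7 CPM (10th to 90th percentile 14.6 to 144) and 104 CPM (38.7 to 186), and 12 of 156 and 13 of 533 cells had no UMI of it. Car1 had medians of 3612 CPM (1816 to 5079) and 2409 CPM (1123 to 3842). The ranges of single cells overlapped for both genes.

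In the progenitor-like class the regulators differed little between the SCD and the wild-type library, while Rhag and Slc4a1 were higher and Car1 was lower in the SCD library. The ratio of CPM, SCD over wild-type, was 1.07 (1.02 to 1.13) for Gata1, 1.06 (1.02 to 1.09) for Klf1, 0.963 (0.914 to 1.01) for Tal1 and 0.979 (0.919 to 1.04) for Epor. Rhag had a ratio of 1.34 (1.25 to 1.42), Ermap of 0.907 (0.877 to 0.938), and Car1 of 0.688 (0.681 to 0.696). Slc4a1 had a ratio of 14.6 (7.64 to 32.3), but from 9 wild-type UMIs. In the SCD library 11 of the 622 cells held 320 of its 427 UMIs, and the ratio without them was not computed. Neutrophils held Slc4a1 at 0.87 and 5.01 CPM, so it was higher in the SCD library outside the erythroid classes too. In sub-cluster 1, all SCD and progenitor-like, it stood at 2.27 CPM, below the level in SCD neutrophils.

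Of the 3232 genes expressed in this class (at least 50 CPM and 20 UMIs in one of the libraries or in both), 0.526% were at least 2-fold higher and 0.248% at least 2-fold lower in the SCD library, with fold changes taken as log2(CPM + 5). None of the 7 members that met this level was among them, and Slc4a1, which was below it, had a log2 ratio of 1.33 on that scale. The median log2 ratio was 0.02 over the 8 genes, -0.03 over the 7 that met this level and 0.04 over all expressed genes. Rhag had a log2 ratio of 0.40, and 86 of the 3232 genes (2.66%), Rhag included, were at least as high. Car1 had a log2 ratio of -0.54, and 37 genes (1.14%), Car1 included, were at least as low.

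These ratios held in direction when a sub-cluster with other lineages' genes was left out. Sub-cluster 3 (62 wild-type and 105 SCD cells) was led by Camp, Cd74 and S100a8, with 13.2% of its cells called doublets. The 15 neutrophil markers, all detected, summed to 1579 and 8616 CPM in the progenitor-like class, and the 13 conventional DC markers to 168 and 70.5 CPM. Without sub-cluster 3 the ratios were 1.29 (1.20 to 1.39) for Rhag, 0.697 (0.688 to 0.705) for Car1 and 9.85 (4.93 to 23.04) for Slc4a1. Without the mitochondrial and ribosomal limits they were 1.52, 0.668 and 14.7. Of the 427 Slc4a1 UMIs of the SCD class, 320 lay in the 11 cells with more than 10 such UMIs, and the 11 cells that belonged to sub-cluster 7 held 176.

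In the precursor-like class the higher CPM of most of the 8 genes in the SCD library was shared with most other genes. The ratios were 3.61 (2.25 to 6.03) for Gata1 (22 and 94 UMIs), 2.89 (2.20 to 3.83) for Klf1, 2.59 (1.93 to 3.51) for Tal1 and 2.24 (1.58 to 3.21) for Epor. They were 1.20 (1.11 to 1.29) for Slc4a1, 1.54 (1.22 to 1.95) for Rhag, 1.67 (1.39 to 2.00) for Ermap and 16.3 (9.36 to 31.03) for Car1. On the log2 scale 5 of the 8 genes were at least 2-fold higher, where 54% of the 2873 expressed genes were, and none was at least 2-fold lower, where 7.48% were. The median log2 ratio was 1.23 over the 8 genes and 1.13 over all expressed genes. Less that median, the log2 ratios were 0.62 for Gata1, 0.37 for Klf1, 0.21 for Tal1 and 2.68 for Car1, and -0.87 for Slc4a1, -0.51 for Rhag and -0.40 for Ermap. Relative to the shift of all genes, the 3 membrane protein genes were thus below the median and Car1 was above it. Of the 2873 genes, 24.2% were at most as low as Slc4a1, 33.6% as Rhag and 36.7% as Ermap. At least as high as Car1 were 0.80%, Car1 included.

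The class was also made up differently in the libraries. Sub-cluster 6 supplied 36 of the wild-type cells and 51.7% of their UMIs, but 48 of the SCD cells and 28.0% of their UMIs, and sub-cluster 7 supplied 6.97% and 65.9% of the UMIs. The 13 conventional DC markers summed to 1575 CPM (12 detected) and 41.3 CPM (5 detected) in this class, and sub-cluster 3 supplied 41.4% and 5.89% of the UMIs. In the sub-cluster 6 cells of this class alone Gata1 had a ratio of 2.49 (0.718 to 9.67, 5 and 8 UMIs), Klf1 of 0.856 (0.370 to 1.87, 20 and 11 UMIs) and Tal1 of 1.34 (0.753 to 2.37). No difference from equal levels was thus detectable for these 3 at this depth. Slc4a1 had a ratio of 1.64 (1.48 to 1.82), Rhag of 1.82 (1.31 to 2.53), Ermap of 1.54 (1.19 to 2.01), Epor of 1.77 (1.04 to 3.02) and Car1 of 3.31 (1.35 to 8.85, 8 and 17 UMIs), where the median log2 ratio of the 965 expressed genes was 1.09. Less that median, the log2 ratios were 0.06 for Gata1, -1.30 for Klf1, -0.68 for Tal1 and -0.29 for Epor. They were -0.37 for Slc4a1, -0.24 for Rhag, -0.47 for Ermap and 0.50 for Car1.

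**Figure D3:**
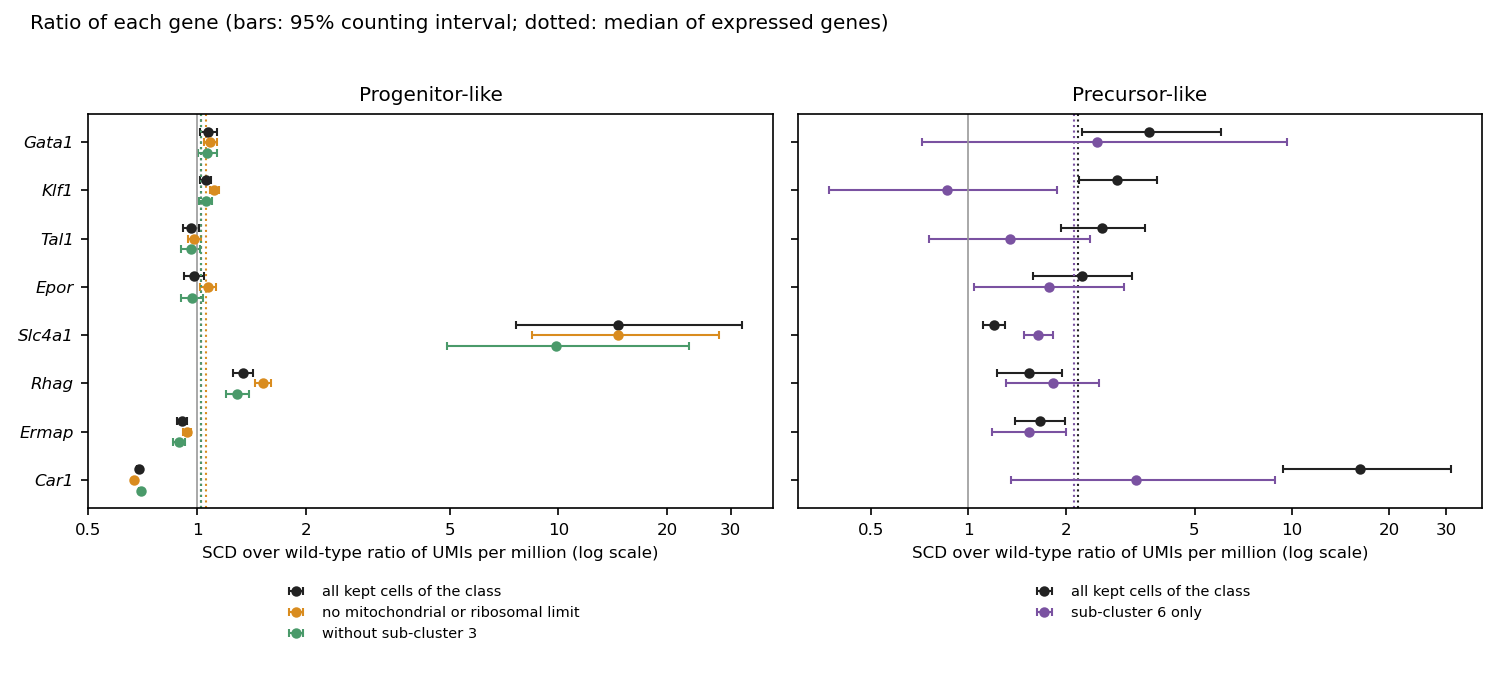
Ratio of CPM, SCD over wild-type (log axis), for each gene in the progenitor-like (left) and precursor-like (right) class, with 95% counting intervals, under the settings named beneath each panel; the solid line marks equal levels and dotted lines the median of all expressed genes. In progenitor-like cells Rhag lies right and Car1 left of the median in each setting, and in precursor-like cells the ratios of Gata1, Klf1 and Tal1 are lower and less precise when only sub-cluster 6 is used, with intervals that include equality and Klf1 moving from 2.89 to 0.856.

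Over all kept cells, of which more were progenitor-like in the SCD library, 7 of the 8 genes had a ratio above 1. The ratios were 1.62 for Gata1, 1.59 for Klf1, 1.47 for Tal1, 1.45 for Epor, 0.981 for Slc4a1, 1.93 for Rhag, 1.34 for Ermap and 1.04 for Car1. Only Klf1, Ermap and Car1 met the level for expressed genes here. None of these 3 was at least 2-fold higher or lower on the log2 scale, where 2.24% and 11.5% of 3523 expressed genes were, and neither was any of the other 5. With all deposited barcodes the ratios were 1.05, 1.07, 0.981, 1.03, 0.915, 1.45, 0.903 and 0.641 in the same order. Rhag was the gene whose ratio stayed farthest above 1 in both.

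Other genes of the same pathways were counted in the erythroid classes from 5 lists. In the progenitor-like class, none of the 12 expressed transcription partners (of 18), the 13 membrane skeleton, blood group and transport genes (of 24) or the 6 erythropoietin signalling genes (of 16) was 2-fold higher or lower, where 0.526% and 0.248% of all expressed genes were, with median log2 ratios of -0.15, -0.18 and -0.17. Among the most abundant of each, Myb stood at 526 and 313 CPM, Bcl11a at 336 and 271 CPM, Aqp1, a water channel, at 254 and 202 CPM, and Tfrc, the transferrin receptor, at 237 and 244 CPM. Kit, the stem cell factor receptor, stood at 131 and 81.9 CPM. Car2, the other abundant carbonic anhydrase, stood at 1569 and 1546 CPM, a ratio of 0.986 (0.971 to 1.0004) beside the 0.688 of Car1. Of the 5 expressed genes of globin and its handling (of 10), Hba-a1 was 2-fold higher (1201 and 2706 CPM) and Hbb-bs 2-fold lower (51.4 and 12.1 CPM).

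In the precursor-like class, where 54% of all expressed genes were 2-fold higher and 7.48% lower, 2 of the 14 expressed transcription partners were higher, Gfi1b (2 and 46 UMIs) and Zfpm1 (133 and 458 CPM), and 2 were 2-fold lower, Cbfa2t3 and Spi1, with a median of 0.36. Of 21 expressed membrane genes 8 were 2-fold higher, among them Aqp1 at 196 and 558 CPM, and 1 was lower, Cd44, with a median of 0.71. Of 7 expressed erythropoietin signalling genes, Pim1 (607 and 1524 CPM) and Tfrc (650 and 1374 CPM) were 2-fold higher, Lyn and Ptpn6 were 2-fold lower, and the median was -0.58. Of the 10 genes of globin and its handling, Hbb-bs and Hbb-bt were 2-fold lower and none was higher, with a median of -0.27. Car2, the only carbonic anhydrase on its list expressed there, stood at 4387 and 5489 CPM. The medians of these 4 lists were below the 1.13 of all expressed genes. Spi1, Cd44, Lyn and Ptpn6 are also used by other leukocytes, and the conventional DC list, at 1575 and 41.3 CPM in this class, was lower in the SCD library with them, while the neutrophil list summed to 6193 and 8615 CPM. The part of such cells in these values was not tested.

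In cells outside the erythroid-like classes 15.6% of 9464 wild-type and 35.1% of 11162 SCD cells held a UMI of at least 1 of the 8 genes. Of those cells 88.3% and 74.7% held a single UMI, and 7 and 73 cells held UMIs of 3 or more of the genes. Car1 made up most of it. After thinning to 1000 UMIs a cell, Car1 was seen in 3.12% (2.63 to 3.69) of wild-type and 4.16% (3.71 to 4.65) of SCD neutrophils, against 90.2% and 82.8% of progenitor-like cells. Unthinned, the neutrophil shares were 8.38% and 21.5%, at median depths of 2451 and 6959 UMIs. Whether these cells themselves made the transcripts was not tested.

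The proportions of the 8 genes within each class were then compared. Car1 was 77.8% of the UMIs of the 8 genes in wild-type and 70.2% in SCD progenitor-like cells, and 73.5% (69.6 to 77.2) and 62.7% (61.0 to 64.5) in neutrophils, 72.2% and 63.4% in monocytes, and 75.8% and 63.1% in conventional DCs. In precursor-like cells it was 0.81% and 8.32%. Slc4a1 was 0.01% and 0.26% of the UMIs in the progenitor-like and 67.9% and 51.2% in the precursor-like cells, and 2.61% (1.44 to 4.34) and 10.5% (9.43 to 11.7) in neutrophils. Car1 thus took the largest share in neutrophils, as in progenitor-like cells. Its neutrophil shares were lower than the progenitor-like ones (77.5 to 78.1 and 70.0 to 70.4), with intervals that did not overlap. The share of Slc4a1 was larger in neutrophils than in progenitor-like cells. In 4 wild-type and 14 SCD cells outside the classes more than 20 UMIs of the genes were counted, up to 85 and 83, and these cells held 192 of 1897 and 544 of 5923 such UMIs.

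Red pulp macrophages departed from this pattern in Epor. Their 18 Epor UMIs in 16 of 290 wild-type cells gave 26.8 CPM (15.9 to 42.4), and 15 UMIs in 9 of 159 SCD cells gave 31 CPM (17.4 to 51.1). Epor made up 32.7% (20.7 to 46.7) and 20.3% (11.8 to 31.2) of the UMIs of the 8 genes there, against 2.43% and 2.79% in neutrophils. Tal1 was not counted in the macrophages of either library, and Gata1 had 2 UMIs in each. The limit of 3 UMIs for Tal1 was 4.47 and 6.20 CPM, and its exact intervals reached 5.50 and 7.62 CPM. Of the Epor-positive macrophages 0 and 1 held a UMI of Gata1, Klf1 or Tal1. Among all the macrophages, Gata1 was seen in 2 and 2 cells and Klf1 in 2 and 4. With so few such cells a small overlap is found whatever the source of the Epor UMIs, which was not tested. No macrophage held more than 4 Epor UMIs.

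**Figure D4:**
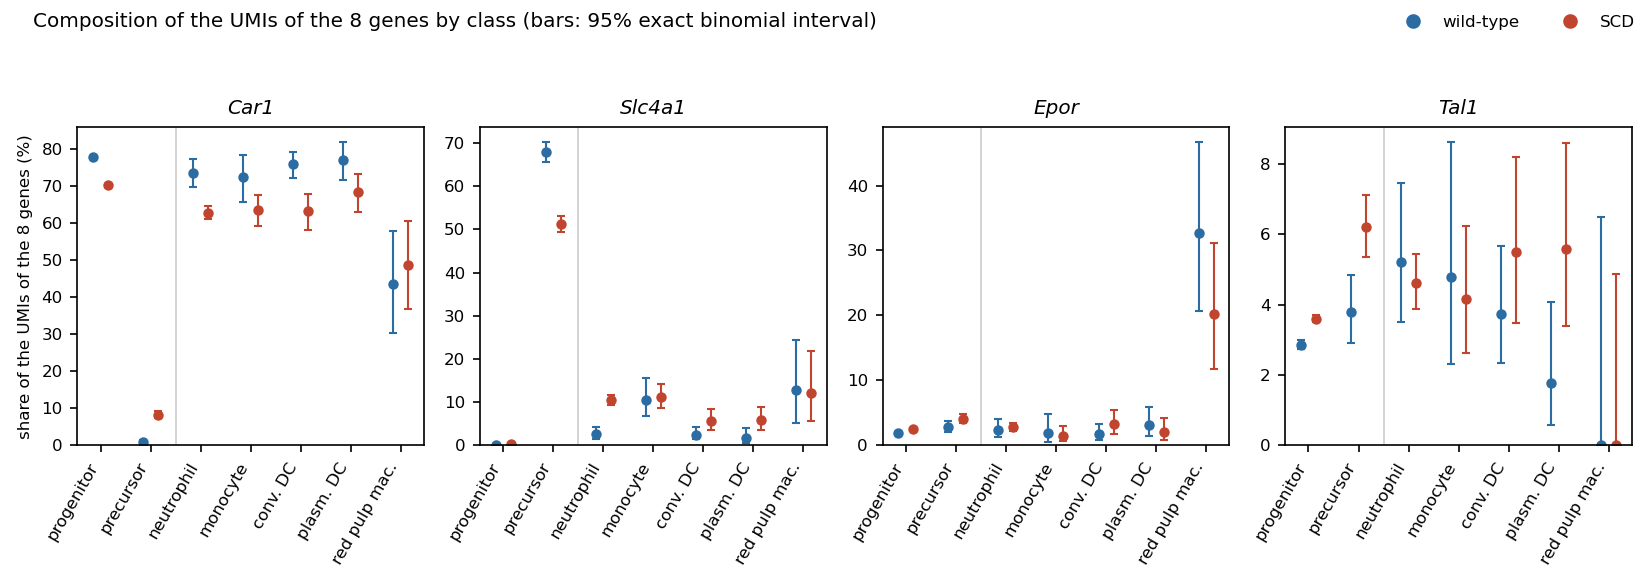
Share of the UMIs of the 8 genes (percent) taken by Car1, Slc4a1, Epor and Tal1 in each class of the wild-type (blue) and SCD (red) library, with exact 95% binomial intervals and a separate axis in each panel. Car1 takes most of the UMIs in progenitor-like cells, neutrophils, monocytes and both kinds of DCs but not in precursor-like cells, and in red pulp macrophages Car1 takes 43.6% and 48.6% and Epor 32.7% and 20.3%.

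Tal1, which is also used by early progenitors and megakaryocytes, was higher in the 135 SCD cells outside the erythroid classes that held UMIs of both Kit and Cd34. Its 61 UMIs in 33 of these cells gave 11.2 CPM (8.56 to 14.4), against 2.46 CPM in the 11027 other cells, and were 25.6% (20.2 to 31.7) of the UMIs of the 8 genes against 5.15% (4.59 to 5.76). One of these cells held 13 of the UMIs. The median depth of the 135 cells was 39370 UMIs. Gata1 had 10 UMIs in them, 8 of which lay in 1 cell. In the 69 such wild-type cells, with a median depth of 14083 UMIs, Tal1 had 3 UMIs, 2.39 CPM (0.493 to 6.99), an interval below that of the SCD library. Gata1 had none there, against the 1.83 CPM (0.879 to 3.37) of the SCD cells, and the interval of the wild-type value, up to 2.94 CPM, overlapped it.

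Across the 49 points given by 25 clusters in each library with at least 20 cells, the genes outside the 8 whose log2 levels were most like the mean of the 8, out of 15306 compared, were Add2 (r = 0.98), Slc38a5 (0.98), Cldn13 (0.98), Aqp1 (0.97), Ank1 (0.97), Mboat2 (0.96), Rhd (0.96), Acmsd (0.96), Tspo2 (0.96) and Kel (0.95). Add2 and Ank1 encode membrane skeleton proteins and Rhd and Kel blood group antigens. By single gene, Add2 was most like Gata1 (0.97) and Klf1 (0.98), Mboat2 like Tal1 (0.97), Cldn13 like Epor (0.92) and Rhag (0.98), Slc38a5 like Ermap (0.97), Apol11b like Slc4a1 (0.97) and Bex4 like Car1 (0.93). Among the 8 genes the closest pair was Gata1 and Klf1 (0.98) and the least alike was Slc4a1 and Car1 (0.30). These points share libraries and depth, and most of the clusters are not erythroid.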

How the data were processed

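Single-cell suspensions of 1 wild-type and 1 SCD spleen were profiled with the 10x Genomics 3′ v3.1 kit. The submitters' processing notes name Cell Ranger 4.0.0, GRCm38.p6, R 4.4, Seurat 3.2.3 and Scanpy 1.6.0, and the authors deposited filtered matrices of raw UMI counts, used as deposited. The study's own upper limit of 5000 genes per cell was not applied. The 8 genes and the lists were chosen with earlier results of these data known.

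Counts were scaled with scran 1.30.0 size factors (R 4.3.3, Matrix 1.6.5). Leiden clustering (scanpy 1.11.5, leidenalg 0.10.2, Python 3.11.15) used 2000 variable genes without the 8 genes or globins, 30 components, 15 neighbours and resolution 1. Erythroid-like cells were clustered again at resolution 0.4. Classes were named from marker lists, and genes were named as all members, up to 3 abundant genes of each list and the closest patterns. Doublets called by Scrublet (382 and 303 cells) were kept.

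UMI counts were summed per class and library. Intervals are exact at 95%: Poisson for levels, Clopper-Pearson for shares, and conditional binomial for ratios. PCR copies were collapsed by UMI. A count of 0 was given a limit of 3 UMIs, or the exact interval where an interval is named. The interval and thinning steps were tested on simulated data.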

Additional observations from a re-analysis of the deposited data

Results flagged for a closer look

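For Ermap and Car1 the CPM ratio of SCD over wild-type pointed in opposite directions in the 2 erythroid classes. Ermap had a ratio of 0.907 in progenitor-like and 1.67 in precursor-like cells, and Car1 had 0.688 and 16.3. With 1 library per genotype these differences between the classes were not tested. With the mean of per-cell CPM, Ermap in progenitor-like cells turned to slightly above equality. Relative to the median of all expressed genes of the precursor-like class, the log2 ratio of Ermap was -0.40 and that of Car1 was 2.68. The Car1 ratio of 16.3 came from 13 wild-type UMIs, and in the sub-cluster 6 cells of the class it was 3.31 (1.35 to 8.85, 8 and 17 UMIs), a log2 ratio 0.50 above the median of expressed genes there.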

How the results depend on the processing

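No paired analysis was possible because there was a single library per genotype, and for the same reason no library could be left out. Values below are log2 ratios of SCD over wild-type unless stated. The share ratio of progenitor-like cells moved from 2.58 to 1.34 without mitochondrial and ribosomal limits and to 3.61 among cells that are not neutrophil-like. The median over the 8 genes in progenitor-like cells was 0.02, with 0.10 without the limits, -0.01 with median-of-ratios scaling and -0.02 with CPM that left out globin, mitochondrial and ribosomal genes. Ermap turned to 0.0084 with the mean of per-cell CPM, and Epor from -0.03 to 0.09 without the limits, a ratio of 1.07 (1.02 to 1.13) in place of 0.979. In precursor-like cells the median of 1.23 became 0.11 with median-of-ratios scaling, which lowers every gene by the same 1.13 and so is no separate check, and under which Epor (-0.0018), Slc4a1 (-0.87), Rhag (-0.51) and Ermap (-0.40) reversed. It became 0.66 with the CPM that left out those genes, where Slc4a1 reversed (-0.34). In sub-cluster 6 alone, a setting chosen after seeing the data, it became 0.76 and Klf1 reversed (-0.21). Over all kept cells the median of 0.45 became 0.58 with median-of-ratios scaling and 0.0053 with all deposited barcodes, where Tal1 (-0.024), Ermap (-0.14) and Car1 (-0.64) reversed. The cause of these moves was not tested. The Car1 share in neutrophils was 5.59% and 6.81% (wild-type and SCD) when thinned to 2000 UMIs, and 8.38% and 21.5% unthinned. Co-detection of Gata1 and Klf1 was 18.8% and 17.0% at 2000 UMIs, 65.4% and 67.5% at 10000 and 98.1% and 99.2% at 40000, the last chosen after seeing the data. Car1 was 64.7% of the UMIs of the 8 genes in SCD neutrophils when only cells with at most 2 such UMIs were used. With at most 5000 genes per cell no cluster was progenitor-like, so that setting gave no value for that class. Of the other settings for the ratios of single genes in the erythroid classes, 129 stayed within the counting interval of the main value and 32 moved, among them that of Epor.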

Other observations

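In the 32 wild-type and 58 SCD erythroid-like cells of sub-cluster 5, which had a median of 1384 UMIs, Gata1 had 10 and 6 UMIs and Klf1 had 21 and 25 UMIs. In the SCD B cells Car1 stood at 59.0 CPM (50.1 to 68.9) from 158 UMIs in 83 of 303 cells, against 29.9 CPM in neutrophils, 41.5 CPM in plasmacytoid DCs and 74.4 CPM (52.1 to 103) in red pulp macrophages of the same library. After thinning to 1000 UMIs a cell the shares of B cells and neutrophils with Car1 overlapped, at 4.97% (2.81 to 8.06) and 4.16% (3.71 to 4.65). Car1 was 71.5% (65.1 to 77.3) of the UMIs of the 8 genes in these B cells, against 62.7% in SCD neutrophils.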
